A study of Mus musculus with 12 samples.

Results

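The AP-1 transcription factor genes considered here were Fos, Fosb, Fosl1, Fosl2, Jun, Junb, Jund, Atf3, Maff and Mafk, and they were found as every array feature whose annotated gene symbol was one of these names. All 10 genes were measured, of 19087 named genes, by 13 features of the 41230 with a value on every array. Fos, Fosl2 and Junb had 2 features each, and the other 7 genes had 1. The cells were Oli-neu, a mouse oligodendroglial cell line, in a derivative that stably expressed the myelin protein PLP fused to EGFP, a feature shared by every sample. The treated cells were kept for 16 h either in conditioned neuronal medium, taken from primary cultures enriched in neurons, or with Y27632, a small-molecule kinase inhibitor, and the reference for each was untreated Oli-neu cells. RNA of treated and untreated cells was hybridised together on 2-colour arrays, 6 arrays for each treatment, with the treated RNA in Cy3 on 3 of them and in Cy5 on the other 3.

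The sources differ on the samples. The channel labels call the first treatment neurons and spell the inhibitor Y27631, and the design text puts neurons on both sides of the inhibitor experiment, whereas its reference channel is labelled untreated. The same text calls the medium arrays technical replicates, and no source used here names separate cultures, so the p-values below measure a spread between arrays that may be technical. It is not stated whether the experiments share untreated RNA, so the tests of the difference between them treat the arrays as independent, and no correlation between the means of the experiments is given.

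AP-1 is a dimer of basic leucine zipper proteins. Jun proteins pair with each other or with Fos proteins, Atf3 pairs with Jun proteins, and the small Maf proteins Maff and Mafk, which lack a transactivation domain, join related dimers. Fos, Fosb, Junb, Atf3 and Jun are classical immediate early genes, transcribed within minutes of growth factor or stress signals through MAP kinases, the serum response factor SRF and CREB-type factors, whereas Fosl1 and Fosl2 follow later and are targets of AP-1 itself.

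Features were read as standardized log ratios, treated over untreated, in which 1 unit is the standard deviation (SD unit) of that array's values. This scale is inferred from an SD of 1 on every array and is not stated in the sources used here. The base of the logarithm is not stated, so these values are no fold changes, and a ratio gives no separate level for treated or untreated cells. Signs were reversed from the deposited ones, because features of Opalin, Cyp2c39 and Chn2, which the study names as induced, were negative there. After reversal the features of Opalin averaged 8.61 and 5.07 SD units on the medium arrays and 3.06 and 1.07 on the Y27632 arrays. The direction is therefore likely but rests on those named genes, and 1 of 3 Chn2 features stayed near 0 (-0.34 and -0.14). Across features, which are not independent, arrays with the same dye on the treated RNA had r from 0.859 to 0.890 in the medium and from 0.731 to 0.809 with Y27632. Arrays of opposite orientation correlated with r from 0.249 to 0.296 in the medium and from -0.262 to -0.120 with Y27632. Each feature was therefore fitted in limma with a term for dye orientation. A feature was called at an adjusted p under 0.05 over 41230 features together with a mean of at least 1 SD unit in size.

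In conditioned neuronal medium, 6 of the 13 AP-1 features fell, 1 rose and 6 were not called. Of all features, 5.57% were called lower and 6.83% higher. With Y27632, 2 of the 13 rose, 1 fell and 10 were not called, against 3.94% of all features called higher and 4.13% called lower. The median over the 13 features was -0.52 SD units in the medium and 0.26 with the inhibitor, beside -0.06 and -0.01 over all features. Without the size threshold, 8 fell and 1 rose in the medium, and 4 rose and 3 fell with Y27632. By that rule, 32.7% of all features were lower and 27.8% higher in the medium, and with Y27632 19.2% were higher and 17.6% lower. Fosl1, Atf3, Fos (feature 43596), Jun and Junb (feature 26438) had means below 0 in the medium and above 0 with Y27632, and no AP-1 feature had the reverse pattern. The Y27632 means of Jun (0.32, limma adjusted p = 0.067) and Junb feature 26438 (0.26, limma adjusted p = 0.094) did not pass the test. The share of all features with either pattern was not counted, so no excess can be read from this.

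**Figure D1:**
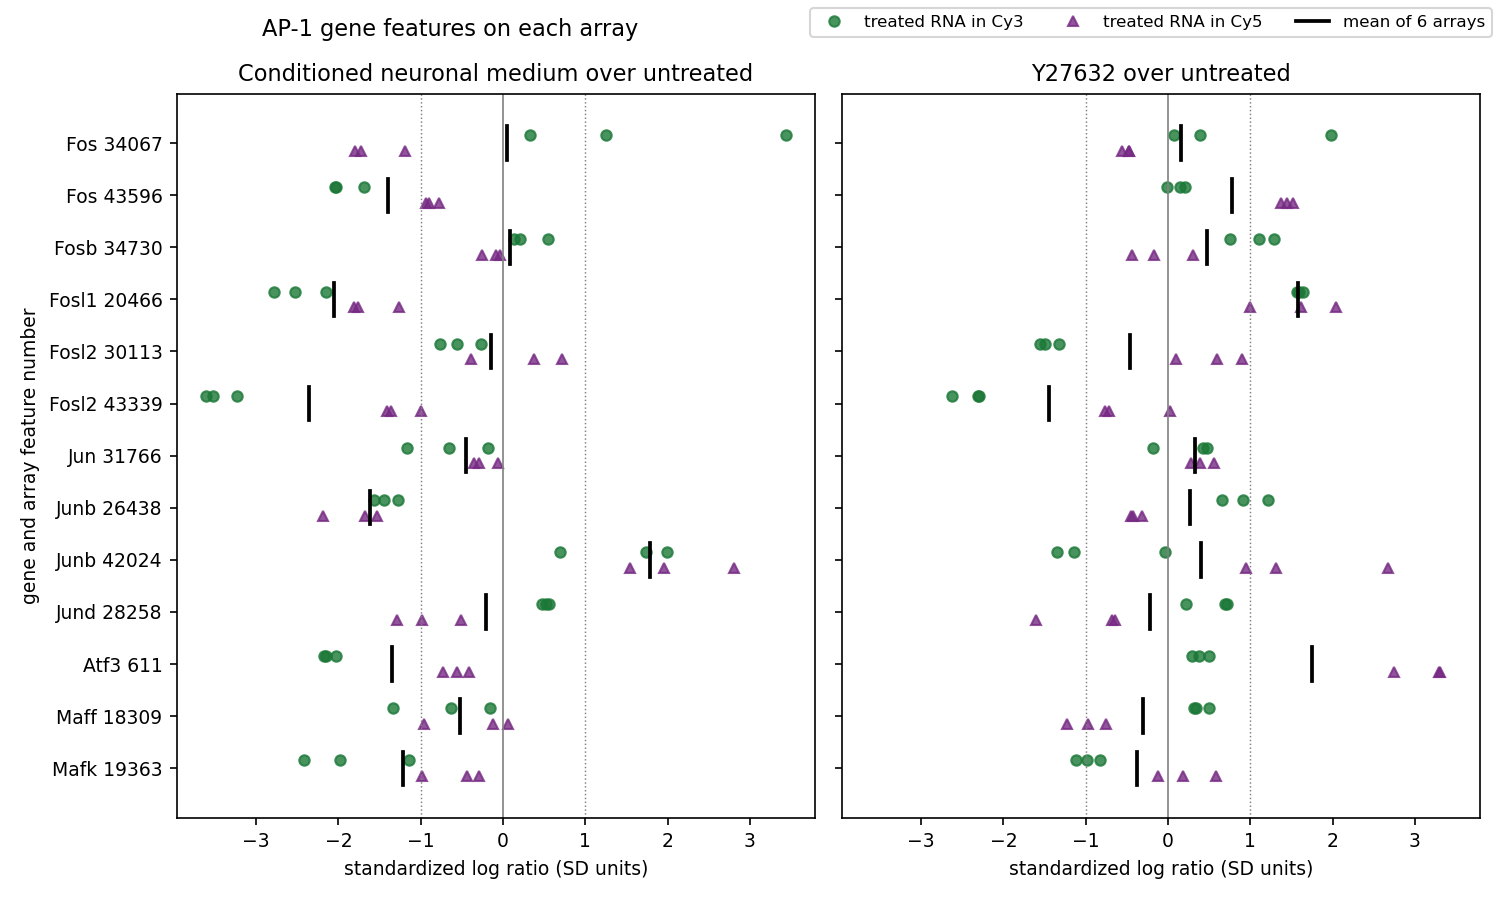
Standardized log ratio, treated over untreated (x axis, SD units), of each AP-1 feature (y axis, gene and feature number) on each array, with conditioned neuronal medium on the left and Y27632 on the right. Circles are arrays with the treated RNA in Cy3, triangles arrays with it in Cy5, black bars the mean of 6 arrays, and dotted lines mark -1 and 1. Fosl1 lay below -1 on all 6 medium arrays and close to or above 1 on all 6 inhibitor arrays.

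Among the Fos family, Fosl1 differed most between the treatments. Fosl1 encodes Fra-1, a Fos protein without the transactivation domain of c-Fos. In conditioned neuronal medium it stood at -2.52, -2.79 and -2.15 SD units with the treated RNA in Cy3 and at -1.76, -1.26 and -1.81 with it in Cy5. With Y27632 it stood at 1.64, 1.59 and 1.57 in Cy3 and at 1.62, 0.99 and 2.04 in Cy5. The arrays of the 2 treatments did not overlap, and each treatment kept its sign in both dye orientations. The mean was -2.05 ± 0.56 in the medium (SD, n = 6, limma adjusted p = 4.7e-07) and 1.58 ± 0.34 with Y27632 (SD, n = 6, limma adjusted p = 7.1e-05). The difference, conditioned neuronal medium minus Y27632, was -3.62 (SE 0.19, limma adjusted p = 8.4e-09).

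Atf3, a stress-induced member of the ATF/CREB family, also fell in the medium and rose with the inhibitor. In conditioned neuronal medium it was at -2.15, -2.17 and -2.03 SD units in Cy3 and at -0.56, -0.42 and -0.73 in Cy5. With Y27632 it was at 0.29, 0.50 and 0.37 in Cy3 and at 3.29, 2.75 and 3.30 in Cy5. Every array kept the sign of its treatment, but the size depended on the dye. The mean was -1.34 ± 0.86 in the medium (SD, n = 6, limma adjusted p = 9.1e-07) and 1.75 ± 1.51 with Y27632 (SD, n = 6, limma adjusted p = 1.7e-05), and the difference was -3.10 (SE 0.13, limma adjusted p = 1.8e-09). These p-values rest on the spread within a dye orientation, whereas the SDs also hold the difference between orientations. Without the dye term the Y27632 mean of Atf3 stayed at 1.75 but was no longer called (limma adjusted p = 0.074), and its means in the weaker orientation were -0.57 in the medium and 0.39 with Y27632.

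Fos encodes c-Fos, the founding member of the family, and its features disagreed. Feature 43596 was at -2.04, -2.03 and -1.68 SD units in Cy3 and at -0.90, -0.78 and -0.93 in Cy5 in conditioned neuronal medium. With Y27632 it was at 0.15, 0.21 and -0.01 in Cy3 and at 1.38, 1.44 and 1.52 in Cy5. It was below 0 on every medium array, whereas with the inhibitor the Cy3 arrays lay at about 0 and the Cy5 arrays above 1. The mean was -1.39 ± 0.59 in the medium (SD, n = 6, limma adjusted p = 9.3e-07). With Y27632 it was 0.78 ± 0.73 (SD, n = 6, limma adjusted p = 0.00041), under the size threshold, and the difference was -2.17 (SE 0.12, limma adjusted p = 1.4e-08). In the Cy5 arrays alone the medium mean was -0.87, under the size threshold.

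The other Fos feature, 34067, changed sign with the dye. In conditioned neuronal medium it was at 3.44, 1.26 and 0.33 SD units in Cy3 and at -1.80, -1.73 and -1.19 in Cy5. With Y27632 it was at 0.39, 0.08 and 1.98 in Cy3 and at -0.48, -0.56 and -0.47 in Cy5. Neither mean was called, at 0.05 ± 2.06 in the medium (SD, n = 6, limma adjusted p = 0.899) and 0.16 ± 0.97 with Y27632 (SD, n = 6, limma adjusted p = 0.628). Leaving out 1 array turned either mean, to -0.39 in the medium without replicate 1 and to -0.13 with Y27632 without replicate 6. The part of the transcript that each feature covers is not given in the sources used here, so neither feature can be preferred.

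Fosl2 encodes Fra-2, the other late Fos protein, and 1 of its features fell under both treatments. Feature 43339 was at -3.61, -3.24 and -3.53 SD units in Cy3 and at -1.41, -0.99 and -1.37 in Cy5 in conditioned neuronal medium. With Y27632 it was at -2.30, -2.31 and -2.62 in Cy3 and at -0.72, -0.77 and 0.02 in Cy5. It was below 0 on all 6 medium arrays and on 5 of 6 inhibitor arrays, whereas Fosl1 was above 0 on all 6 of the inhibitor arrays. The mean was -2.36 ± 1.22 in the medium (SD, n = 6, limma adjusted p = 6.5e-08) and -1.45 ± 1.09 with Y27632 (SD, n = 6, limma adjusted p = 8.1e-05). The difference of -0.91 (SE 0.16, limma adjusted p = 0.00053) passed the test but not the size threshold, which it reached without replicate 2 (-1.03). The Y27632 call was lost without the dye term, with the mean still at -1.45 (limma adjusted p = 0.053), and in the Cy5 arrays alone, where the mean was -0.49.

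The remaining features of the Fos family were not called. Fosl2 feature 30113 averaged -0.15 ± 0.58 SD units in the medium and -0.47 ± 1.12 with Y27632 (SD, n = 6 each, limma adjusted p = 0.386 and 0.019), and its inhibitor values were -1.33, -1.50 and -1.55 in Cy3 against 0.60, 0.10 and 0.89 in Cy5. Fosb, an immediate early gene whose splice product ΔFosB is long-lived in neurons, averaged 0.09 ± 0.28 in the medium and 0.47 ± 0.69 with Y27632 (SD, n = 6 each, limma adjusted p = 0.421 and 0.021). The difference for Fosb was -0.39 (SE 0.16, limma adjusted p = 0.061).

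Junb, a Jun protein that often acts against c-Jun, had features of opposite sign in conditioned neuronal medium. Feature 26438 was at -1.44, -1.57 and -1.28 SD units in Cy3 and at -2.18, -1.53 and -1.67 in Cy5. Feature 42024 was at 0.69, 1.73 and 2.00 in Cy3 and at 1.54, 2.81 and 1.95 in Cy5. The values of the 2 dye orientations overlapped for both features, and the orientation term passed for neither (limma adjusted p = 0.156 and 0.193). The means were -1.61 ± 0.31 (SD, n = 6, limma adjusted p = 1.2e-06) and 1.79 ± 0.69 (SD, n = 6, limma adjusted p = 3.8e-05), and the gene's mean of both features was 0.09. No direction can be given for Junb as a gene.

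With Y27632, neither Junb feature was called. Feature 26438 was at 1.22, 0.66 and 0.91 SD units in Cy3 and at -0.42, -0.46 and -0.31 in Cy5 (mean 0.26 ± 0.75, SD, n = 6, limma adjusted p = 0.094). Feature 42024 was at -0.04, -1.35 and -1.14 in Cy3 and at 1.31, 0.95 and 2.67 in Cy5 (mean 0.40 ± 1.54, SD, n = 6, limma adjusted p = 0.239). The orientations opposed each other in both features, in opposite senses. The difference between the treatments was -1.88 (SE 0.15, limma adjusted p = 3.9e-07) for feature 26438 and 1.39 (SE 0.35, limma adjusted p = 0.0057) for feature 42024. The second of these lost its call without the dye term, with the value still at 1.39 (limma adjusted p = 0.158), and in the Cy5 arrays alone (0.46, limma adjusted p = 0.474).

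Jun, which encodes c-Jun, the principal partner of Fos proteins, moved less than Fosl1 or Atf3. It was at -0.18, -0.65 and -1.17 SD units in Cy3 and at -0.29, -0.06 and -0.35 in Cy5 in conditioned neuronal medium, and at 0.43, -0.18 and 0.47 in Cy3 and 0.28, 0.39 and 0.56 in Cy5 with Y27632. All 6 medium arrays were below 0 and 5 of 6 inhibitor arrays above it. The mean was -0.45 ± 0.40 in the medium (SD, n = 6, limma adjusted p = 0.010) and 0.32 ± 0.26 with Y27632 (SD, n = 6, limma adjusted p = 0.067). The difference of -0.77 (SE 0.18, limma adjusted p = 0.0031) passed the test and was under the size threshold. Jund, the Jun gene with the steadiest expression in most cells, averaged -0.20 ± 0.83 in the medium and -0.22 ± 0.92 with Y27632 (SD, n = 6 each, limma adjusted p = 0.124 and 0.301), with a difference of 0.02 (SE 0.19, limma adjusted p = 0.954). Its Cy3 arrays were above 0 and its Cy5 arrays below 0 in both experiments.

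The small Maf genes encode partners of NF-E2-type factors. Mafk fell in conditioned neuronal medium, at -1.98, -2.41 and -1.15 SD units in Cy3 and -0.99, -0.44 and -0.29 in Cy5 (mean -1.21 ± 0.84, SD, n = 6, limma adjusted p = 0.00013). In the Cy5 arrays alone its mean was -0.57, under the size threshold. With Y27632 it was at -0.98, -0.82 and -1.12 in Cy3 and at 0.18, -0.12 and 0.58 in Cy5 (mean -0.38 ± 0.70, SD, n = 6, limma adjusted p = 0.037), which was not called. The difference for Mafk was -0.83 (SE 0.22, limma adjusted p = 0.0066). Maff was not called in either experiment, at -0.52 ± 0.55 in the medium and -0.30 ± 0.77 with Y27632 (SD, n = 6 each, limma adjusted p = 0.023 and 0.055).

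**Figure D2:**
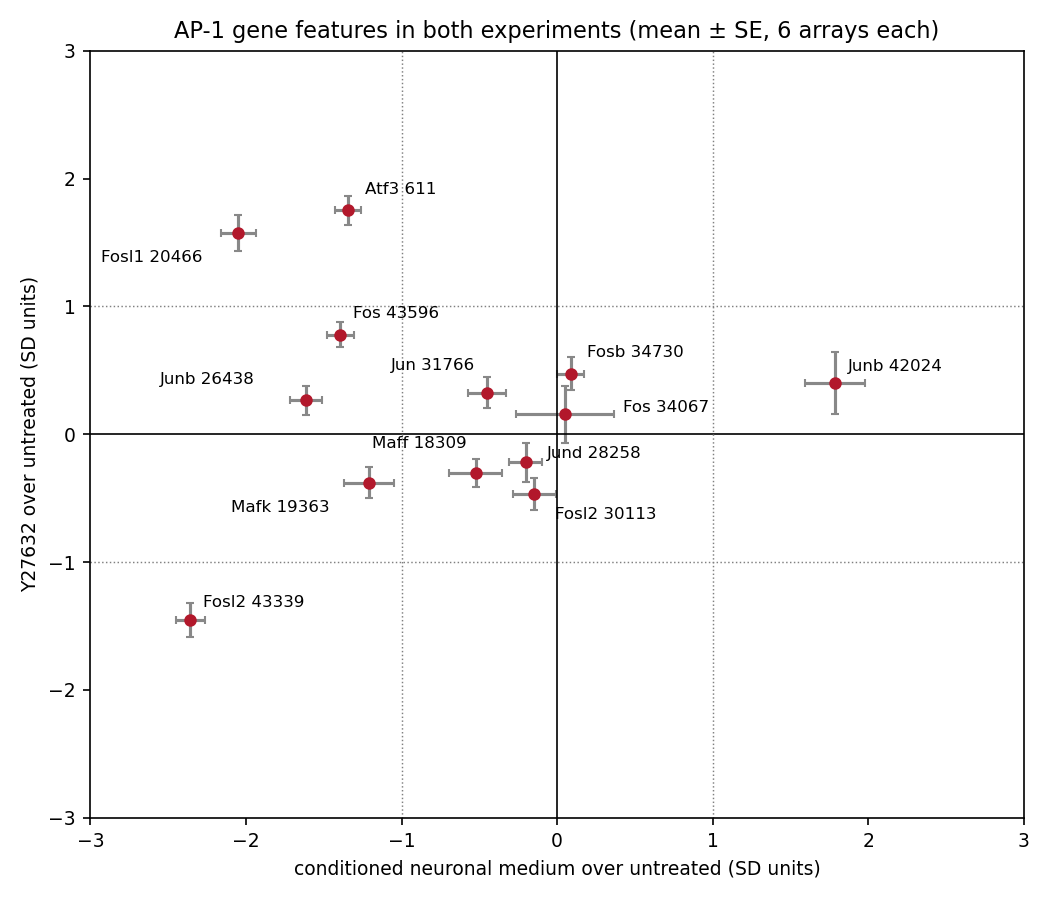
Mean standardized log ratio of each AP-1 feature in conditioned neuronal medium (x axis, SD units) against that with Y27632 (y axis, SD units), each over 6 arrays, with error bars of 1 SE from the limma fit and dotted lines at -1 and 1. Fosl1 and Atf3 lie at the upper left (-2.05 and 1.58, and -1.34 and 1.75), Fosl2 feature 43339 at the lower left (-2.36 and -1.45), and the 2 Junb features far apart on the x axis (-1.61 and 1.79).

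Between the treatments, 4 of the 13 features were lower in the medium than with Y27632 (Fosl1, Atf3, Fos feature 43596 and Junb feature 26438) and 1 was higher (Junb feature 42024). Of all features, 8.11% were called lower and 8.94% higher in that comparison. Without the size threshold 7 were lower and 1 higher, beside 24.2% and 22.1% of all features. The mean over the features of a gene gave a narrower picture. By it, Fosl1, Atf3, Fosl2 (-1.25) and Mafk fell in the medium, Fosl1 and Atf3 rose with Y27632, and Fosl1, Atf3 and Fos (-1.14) were lower in the medium than with the inhibitor.

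Dye orientation moved many features of the whole array, and AP-1 features among them. Its term passed the test in 8 of the 13 features in conditioned neuronal medium and in 11 with Y27632, where 57.6% and 52.1% of all features did. The means of the 2 orientations had opposite signs for 4 features in the medium and 8 with Y27632, beside 47.5% and 58.5% of all features. The sign was the same on all 6 arrays for 8 AP-1 features in the medium, beside 31.2% of all features, and for Fosl1 and Atf3 alone with Y27632, beside 19.1%.

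The profile of Atf3 over the 12 arrays followed that of Fos feature 43596 with r = 0.985, and that of Fosl1 followed the same Fos feature with r = 0.904, while the other Fos feature, 34067, had r = -0.354 with feature 43596 and -0.363 with Atf3. Across all named genes, by the mean of features, the profiles most like that of Fos were those of 5031410I06Rik (r = 0.955), Cacna1g (0.929), Rpl35 (0.918), Sardh (0.908) and Olfr420 (0.903). For Jun they were those of Dock1 (0.921), Hspbp1 (0.914), Lrrc75a (0.912), Fbrsl1 (0.909) and Ptcd1 (0.908). The 12 arrays share treatments and dye orientations, so these correlations describe the arrays, and the Fos profile averages features that disagree.

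Promoter windows were read for the members from RefSeq annotation of build GRCm38.p6, from 250 bases before to 50 after a gene start. Immediate early genes are known for CREB, SRF and AP-1 elements in their promoters. Sequence outside the window was not searched, so an element not found here may lie further upstream. For 9 genes there were 11 windows, of which Maff had 3. The letters searched on both strands were TGAGTCA (the AP-1 element), TGACGTCA (the cyclic AMP response element), TGACATCA (the Jun variant of it), TGACGT (the shorter core, which lies within TGACGTCA) and the CArG box of SRF. TGACGT was found in 3 of the 11 member windows (7.51% of 32851 windows), TGACATCA in 2 (3.62%), TGACGTCA in 1 (1.79%), and TGAGTCA (5.2%) and the CArG box (1.63%) in none. The windows of Atf3 and Fos are shown because they hold the core, and those of Jun and the second Maff start because they hold TGACATCA and TGACGTCA. The matched letters are in capitals. Whether a match goes with the likeness of any profiles was not tested. Each is written along the strand of its gene, at chr1:191183284-191183583 (minus strand) for Atf3, chr12:85473640-85473939 (plus strand) for Fos, chr4:95052173-95052472 (minus strand) for Jun and chr15:79347270-79347569 (plus strand) for the second Maff window.
Atf3: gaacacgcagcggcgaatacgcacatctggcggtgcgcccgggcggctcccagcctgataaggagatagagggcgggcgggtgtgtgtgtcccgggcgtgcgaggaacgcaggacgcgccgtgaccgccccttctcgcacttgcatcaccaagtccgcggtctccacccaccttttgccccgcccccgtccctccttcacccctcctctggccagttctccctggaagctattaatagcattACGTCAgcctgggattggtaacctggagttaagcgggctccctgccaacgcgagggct
Fos: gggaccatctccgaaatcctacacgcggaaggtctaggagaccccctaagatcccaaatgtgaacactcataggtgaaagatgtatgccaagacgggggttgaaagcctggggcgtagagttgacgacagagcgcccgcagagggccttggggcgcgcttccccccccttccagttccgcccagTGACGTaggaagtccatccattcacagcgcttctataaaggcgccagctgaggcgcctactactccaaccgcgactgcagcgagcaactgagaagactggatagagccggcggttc
Jun: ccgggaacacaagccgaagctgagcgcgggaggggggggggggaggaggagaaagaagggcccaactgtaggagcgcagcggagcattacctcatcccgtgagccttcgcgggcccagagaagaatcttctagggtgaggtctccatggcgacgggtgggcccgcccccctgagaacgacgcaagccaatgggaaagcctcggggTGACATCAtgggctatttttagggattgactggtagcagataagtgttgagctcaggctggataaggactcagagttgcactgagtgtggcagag
Maff: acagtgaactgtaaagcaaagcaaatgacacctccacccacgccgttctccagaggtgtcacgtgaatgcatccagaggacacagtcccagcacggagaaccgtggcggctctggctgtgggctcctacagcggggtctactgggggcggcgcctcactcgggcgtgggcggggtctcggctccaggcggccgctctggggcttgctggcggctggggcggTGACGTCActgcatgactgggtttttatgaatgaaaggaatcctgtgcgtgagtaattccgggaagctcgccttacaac
The core stood at -66 to -61 from the start of Fos and, in reverse as ACGTCA, at -8 to -3 from that of Atf3. TGACATCA stood at -45 to -38 from the start of Jun and, in a window not shown, at the same place from the third start of Maff, and TGACGTCA at -29 to -22 from the second start of Maff. Genes with a match thus included Atf3, which was called under both treatments, and Maff, which was called under neither. A match is a description of letters and not a bound site.

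Other genes of the pathway were taken from lists and given as the mean of a gene's features, tested over 19087 genes, of which 4.95% were called higher and 5.29% lower in conditioned neuronal medium and 3.19% higher and 2.68% lower with Y27632. By the adjusted p alone, 27.6% of genes were higher and 36.7% lower in the medium and 20.5% higher and 19.5% lower with Y27632. A list of negative feedback regulators of MAP kinase signaling, many of them induced by that signaling, also held the mRNA decay genes Zfp36, Zfp36l1 and Zfp36l2. Of its 19 measured genes, 6 fell in the medium and 1 rose, while 5 were higher and 12 lower by the adjusted p alone. The phosphatase gene Dusp4 averaged -2.47 ± 0.32 SD units (limma adjusted p = 2.5e-08), and the receptor tyrosine kinase antagonists Spry4 and Spry2 averaged -1.88 ± 0.63 (limma adjusted p = 7.3e-07) and -1.68 ± 0.56 (limma adjusted p = 1.5e-06, SD, n = 6 each). The features of Spry2 stood at -2.42 and -0.93. Dusp7, a phosphatase of ERK, rose instead, to 1.90 ± 0.50 (SD, n = 6, limma adjusted p = 5.2e-06). With Y27632 none of the 19 was called, although 6 were higher and 6 lower by the adjusted p alone. Between the treatments 7 were lower and 2 higher in the medium, where 7.77% of all genes were lower and 6.85% higher. The median of the list was -0.61 in the medium and -0.06 with Y27632, beside -0.08 and -0.01 over all genes.

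Kinases and SRF factors upstream of AP-1 made up another list. In conditioned neuronal medium 2 of 30 measured genes rose and none fell, beside 4.95% of all genes called higher and 5.29% lower. By limma's adjusted p alone 9 were higher and 14 lower, beside 27.6% and 36.7% of all genes. The JNK gene Mapk9, whose product phosphorylates c-Jun, averaged 1.85 ± 0.38 SD units (SD, n = 6, limma adjusted p = 1.5e-07). Map3k5, a stress kinase upstream of JNK and p38, averaged 1.16 ± 0.30 (SD, n = 6, limma adjusted p = 2.4e-05). With Y27632 none of the 30 was called, beside 3.19% of all genes called higher and 2.68% lower. By limma's adjusted p alone 9 were higher and 1 lower with Y27632, beside 20.5% and 19.5% of all genes. Between the treatments 3 were lower and 1 higher in the medium, beside 7.77% and 6.85% of all genes. The list had medians of -0.13 in the medium and 0.13 with Y27632.

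Of 15 measured dimer partners of the ATF, BATF and Maf type, 1 fell in the medium and 1 rose with Y27632. Of all genes, 5.29% were called lower in the medium and 3.19% higher with Y27632. By limma's adjusted p alone 7 were lower and 5 higher in the medium, beside 36.7% and 27.6% of all genes. With Y27632 2 were lower and 4 higher by that rule, beside 19.5% and 20.5%. Between the treatments 2 were lower and 1 higher in the medium, beside 7.77% and 6.85%. The medians of the list were -0.26 in the medium and -0.09 with Y27632. Batf3, a BATF protein that pairs with Jun proteins, fell to -1.04 ± 0.23 SD units in the medium (SD, n = 6, limma adjusted p = 6.7e-06). Maf, which encodes the large Maf protein c-Maf, rose to 1.29 ± 0.16 with Y27632 (SD, n = 6, limma adjusted p = 3.4e-05), with its 4 features between 0.60 and 1.87.

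Genes listed as known AP-1 targets in other cells moved both ways. In conditioned neuronal medium 5 of 27 measured fell and 4 rose, beside 5.29% of all genes called lower and 4.95% higher. With Y27632 1 rose and 1 fell, beside 3.19% and 2.68% of all genes. By limma's adjusted p alone 12 were lower and 8 higher in the medium, beside 36.7% and 27.6% of all genes. With Y27632 6 were lower and 3 higher by that rule, beside 19.5% and 20.5%. Between the treatments 6 were lower and 5 higher in the medium, beside 7.77% and 6.85% of all genes. Plaur, the urokinase receptor, had the lowest value in the medium, at -3.68 ± 0.22 SD units (SD, n = 6, limma adjusted p = 8.4e-09). Also lower in the medium were the actin linker Ezr (-2.68 ± 0.92), the cell cycle regulator Ccnd1 (-2.05 ± 0.31) and the hyaluronan receptor Cd44 (-2.0 ± 0.63, SD, n = 6 each). The features of Cd44 ran from -2.63 to -0.73 there. The genes that rose were the metallothionein Mt2 (1.98), the metalloprotease Mmp12 (1.60), the connexin Gja1 (1.32) and the chemokine Ccl2 (1.09), named after their values were seen. With Y27632 the keratin gene Krt18 rose to 1.49 ± 0.94 and the integrin gene Itgb1 fell to -1.30 ± 0.36 (SD, n = 6 each, limma adjusted p = 0.00032 and 4.7e-05). Krt18 averaged 2.23 in the Cy3 arrays of Y27632 and 0.75 in the Cy5 arrays. The features of Itgb1 ran from -1.90 to -0.42 with Y27632. The medians of this list were -0.18 in the medium and -0.09 with Y27632.

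**Figure D3:**
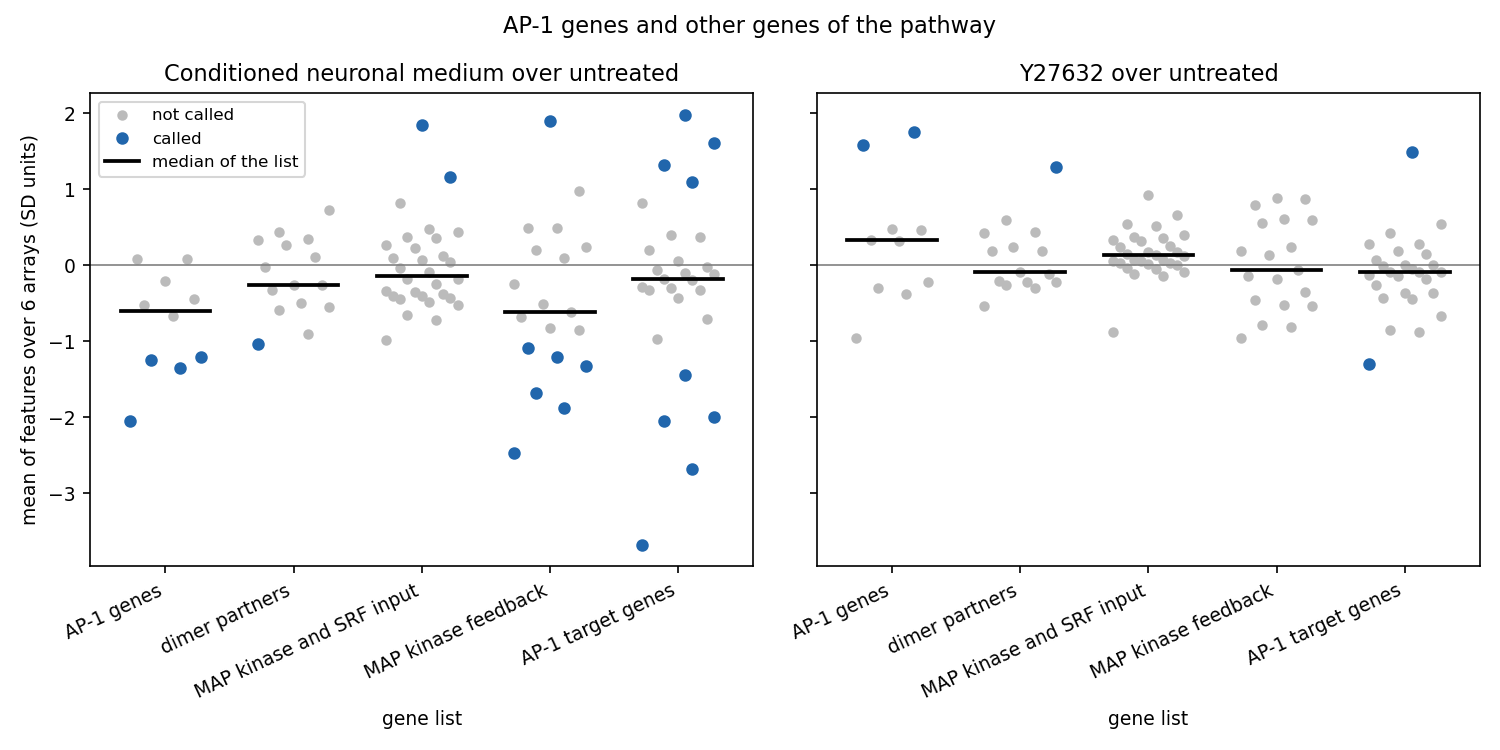
Mean standardized log ratio over 6 arrays (y axis, SD units, mean of a gene's features) of each measured gene in the AP-1 genes and the lists around them (x axis), in conditioned neuronal medium on the left and with Y27632 on the right. Blue points were called, grey points were not, and bars are list medians. The feedback list has 6 called genes below 0 in the medium and none called with Y27632.

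Markers of other cell types were read beside these results. Of 20 neuron markers, 5 rose and none fell in conditioned neuronal medium, where 4.95% of all genes were called higher and 5.29% lower. By limma's adjusted p alone 11 of them were higher there and 5 lower, beside 27.6% and 36.7% of all genes. Under the inhibitor none rose and 1 fell, beside 3.19% and 2.68% of all genes. By the adjusted p alone 2 were higher and 6 lower under it, beside 20.5% and 19.5%. Their means ran from -0.82 to 3.08 SD units in the medium and from -2.58 to 0.48 with Y27632. The neurofilament gene Nefl was the extreme in both (3.08 and -2.58), but its features stood at 6.41 and -0.25 in the medium. Other neuron genes that rose in the medium were Slc17a7 (1.73), Eno2 (1.70), Gad1 (1.03) and Tubb3 (1.02, named after its value was seen). The features of Gad1 ran from 0.06 to 1.63 there. Tubb3 averaged 2.17 in the Cy3 arrays of the medium and -0.12 in the Cy5 arrays. Among 9 measured astrocyte markers, Gja1 rose (1.32) and Fgfr3 (-3.91) and Gfap (-2.94) fell in the medium, while Gfap (1.91) and Aldoc (1.42) rose with Y27632. With the inhibitor the features of Gfap ran from 0.76 to 2.85, and those of Aldoc stood at 0.40 and 2.43. Among 10 measured microglia markers, C1qa (2.23) rose and P2ry12 (-1.42) fell in the medium, and P2ry12 (1.75) rose with Y27632. The size for P2ry12 depended on the dye, at -2.29 in Cy3 and -0.55 in Cy5 in the medium. It averaged 0.69 in Cy3 and 2.81 in Cy5 with Y27632. Of 13 measured oligodendrocyte lineage genes, 7 rose and 1 fell in the medium and 4 rose with Y27632. The highest in the medium were Opalin (6.84), on which the direction partly rests, Olig1 (5.44) and Cnp (5.32), and the gene that fell was the myelin gene Mbp (-1.19, named after its value was seen). Those that rose with Y27632 were Cnp (2.07), Opalin (2.07), Bcas1 (1.84) and Olig1 (1.12). Olig1 averaged 0.32 in the Cy3 arrays of Y27632 and 1.92 in the Cy5 arrays. The part of other cells in the AP-1 values was not tested, and the levels of these markers cannot be read from ratios. The study describes Oli-neu as a pure oligodendroglial culture, while the channel labels call the first treatment neurons. In RNA from whole cultures, fewer cells of a type and less RNA per cell cannot be told apart.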

How the data were processed

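Each deposited value is a score, taken here as a standardized log ratio between 2 channels of an Agilent mouse whole genome array, because the values of every array had an SD of 1. Per the study's methods, RNA was amplified and labelled in a dye-swap design, images were quantified, saturated features of a high gain scan were replaced from a low gain scan, and non-linear loess normalization was applied. Log base, standardization, centring and direction are not given in the sources used here, nor are signal over background and level. The table has 44290 features, and the 3060 missing on every array were left out, which left 41230 (31700 with 1 annotated gene, 47 with several and 9483 without), and 31906 of 32089 annotated probes matched RefSeq by gene ID.

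Signs were reversed, and each experiment was fitted apart (limma 3.58.1, R 4.3.3) by a model of an intercept plus dye orientation. The difference was fitted on all 12 arrays with dye within treatment. Every adjusted p is limma's, Benjamini-Hochberg adjusted over all features or genes. The number of arrays limits the precision. The code was tested on simulated data. Alternatives were median centring, scaling by the median absolute deviation, no dye term, 1 dye orientation, an unmoderated model, gene values, other size thresholds, a replicate block and leaving out each replicate. Genes named are the members, the genes that check direction, up to 4 called genes per list and treatment with the largest mean in size, and the 5 genes most correlated with Fos and Jun; other names were chosen after their values were seen. The members and lists were chosen with earlier results of these data known.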

Additional observations from a re-analysis of the deposited data

Results flagged for a closer look

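The test of the difference between the treatments, conditioned neuronal medium minus Y27632, passed for 8 of the 13 AP-1 features. It was -3.62 SD units for Fosl1, -3.10 for Atf3, -2.17 for Fos feature 43596 and -1.88 for Junb feature 26438, and 1.39 for Junb feature 42024. It was smaller for Fosl2 feature 43339 (-0.91), Mafk (-0.83) and Jun (-0.77). These values compare SD units of separate arrays, which need not be of equal size in the 2 experiments.

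For Fos feature 34067 with Y27632, 1 array with the treated RNA in Cy3 stood apart at 1.98 SD units from the other 5, with a gap of 0.627 of the whole range which is above Dixon's critical value for 6 samples. It was the single such array among 26 groups of 6 arrays examined. Chance marks about 1 in 20 groups only where all values share a common distribution, whereas each group here held both dye orientations.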

How the results depend on the processing

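Of the 13 AP-1 features, 7 were called in conditioned neuronal medium, 3 with Y27632 and 5 in the difference between them. With a size of at least 2 SD units these counts were 2, 0 and 3. With the adjusted p alone they were 9, 7 and 8. By gene values, where 10 genes are counted, they were 4, 2 and 3. Without the dye term 1 was called with Y27632, and with arrays scaled by the median absolute deviation 8 were called in the difference. In the Cy3 arrays alone 8 were called in the medium (7 of them among the 7), 4 with Y27632 (2 higher and 2 lower, 2 among the 3) and 7 in the difference (5 among the 5). In the Cy5 arrays alone 5 were called in the medium (4 among the 7), 4 with Y27632 (4 higher, 2 among the 3) and 5 in the difference (4 among the 5). Leaving out each replicate gave 7 in every case in the medium, 3 with Y27632 and from 5 to 6 in the difference. The replicate numbers did not pair the arrays (r of deviations from orientation means between -0.048 and 0.084), and the fit with a replicate block called 5. Calls over all features moved too, in the medium to 547 higher and 326 lower with a size of at least 2 against 2814 and 2298, and with Y27632 to 163 and 212 against 1624 and 1702. With that size the difference had 883 and 608 against 3685 and 3344. Each count over all features is out of 41230. Scaling by the median absolute deviation gave 4533 and 4178 in the medium and 2824 and 2852 with Y27632, and 5291 and 5225 in the difference. In Cy3 alone 3733 were higher and 4202 lower in the medium, 4406 and 4524 with Y27632, and 4228 and 4273 in the difference. In Cy5 alone these were 4997 and 5164 in the medium, 4349 and 4448 with Y27632, and 4788 and 4492 in the difference. Without the dye term 2604 were higher and 1998 lower in the medium, 1209 and 1196 with Y27632, and 2713 and 2457 in the difference. The replicate block gave 3704 and 3353 in the difference. Leaving out each replicate gave from 3679 to 3814 higher and from 3367 to 3440 lower in the difference.

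Signs turned mostly with dye orientation. In the Cy3 arrays alone the sign turned for Jund in the medium (0.52), for Junb feature 42024 (-0.84), Jund (0.54) and Maff (0.38) with Y27632, and for Fos feature 34067 (0.86) and Jund (-0.019) in the difference. In the Cy5 arrays alone it turned for Fos feature 34067 (-1.57), Fosb (-0.13) and Fosl2 feature 30113 (0.24) in the medium. In the same arrays with Y27632 it turned for Fos feature 34067 (-0.50), Fosb (-0.10), Fosl2 feature 30113 (0.53), Junb feature 26438 (-0.40) and Mafk (0.21), and in the difference for Fosl2 feature 30113 (-0.29) and Maff (0.65). Scaling by the median absolute deviation turned Fos feature 34067 in the difference (0.13). Leaving out each replicate moved Fos feature 34067 between -0.39 and 0.39 in the medium, between -0.13 and 0.34 with Y27632 and between -0.54 and 0.24 in the difference, Fosl2 feature 30113 between -0.27 and 0.010 in the medium, and Jund between -0.15 and 0.11 in the difference. The causes were not tested. The number of arrays, the dye effect and the unknown signal over background limit what these values can show.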
